A study of Mus musculus with 10 samples.

Results

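The genes described are 30 markers of the subfields of the hippocampus, taken by their symbols from the table of arrays: 7 of CA1, 5 of CA2, 5 of CA3 and 13 of the dentate gyrus. Each gene was represented by its transcript cluster (the probes that the array design groups as 1 unit of measurement) with the highest mean. The CA2 marker Ntf3 was not analysed here, which left 29 of the 30, each with 1 transcript cluster, among 19936 genes with a transcript cluster. RNA from the hippocampus was measured on 1 Affymetrix Mouse Gene 1.0 ST array per mouse in 5 Ts65Dn males and 5 control littermates, all 16 weeks old and on an F1 hybrid B6C3B background. Ts65Dn mice, a model of Down syndrome, carry a supplementary mini-chromosome that gives them an extra copy of the Mmu16 genes from Mrpl39 to Zbtb21 and of the centromeric Mmu17 genes from Pisd-ps2 to Pde10a, so that they have 3 copies where the controls have 2. The left and right hippocampus of a mouse went into 1 RNA, so no value belongs to a single subfield. None of the 30 markers lies in the segments present in 3 copies (0 of 30), and the comparison asks whether the regional make-up of the hippocampal RNA differed between the genotypes.

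The hippocampus passes information from the granule cells of the dentate gyrus, through their mossy fibre axons, to the pyramidal cells of CA3, and from there to CA1, whose cells project to the subiculum. CA2 is a narrow zone between CA3 and CA1 with its own inputs and gene expression. Each of these cell types switches on its own set of genes, and several of these genes also differ along the long axis, from the dorsal to the ventral end. In tissue taken whole, fewer cells of a type and less RNA of a gene per cell cannot be told apart.

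All values are log2 signals made by RMA, so a difference of 1 is a doubling, and differences are Ts65Dn minus control. The medians of the 10 arrays ran from 7.38 to 7.41, and no pair of arrays held identical values (0 pairs). All 29 measured markers had mean signals above 5.91, the 95th percentile of the 1027 olfactory receptor genes, which were taken as a guide to unexpressed genes. The dimmest were Map3k15 at 6.35 and Tdo2 at 6.39, and RMA compresses the differences of such dim genes. Over the 23410 transcript clusters tested with limma, 74 passed an adjusted p of 0.05, 73 of them higher and 1 lower in Ts65Dn. The median difference over all tested transcript clusters was -0.0028, with 52.4% below 0.

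No marker passed this threshold (0 of 29, where 0.316% of all tested transcript clusters did). At an unadjusted p under 0.05, limma had 4 markers lower in Ts65Dn, Wfs1 and Man1a of CA1, Cacng5 of CA2 and Npnt of the dentate gyrus, against 1.43% of all transcript clusters, and 0 higher, against 1.73%. The study's rank method, rewritten here and applied to all 25 pairs of a Ts65Dn and a control array, called the same 4 and Amigo2 lower, against 2.46% of all transcript clusters, and Iyd, C1ql2 and Trpc6 higher, against 2.9%. Its tails are cut from the spread of its own ranks, so the share it calls is largely set in advance. The markers were chosen with earlier results of these data known, so these counts beside the shares are a description and not a test. The difference was below 0 for 18 markers and above 0 for 11, with a median of -0.02. The 29 standard errors had a median of 0.0935, and the 95% intervals reached a median of 0.205 to either side.

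**Figure D1:**
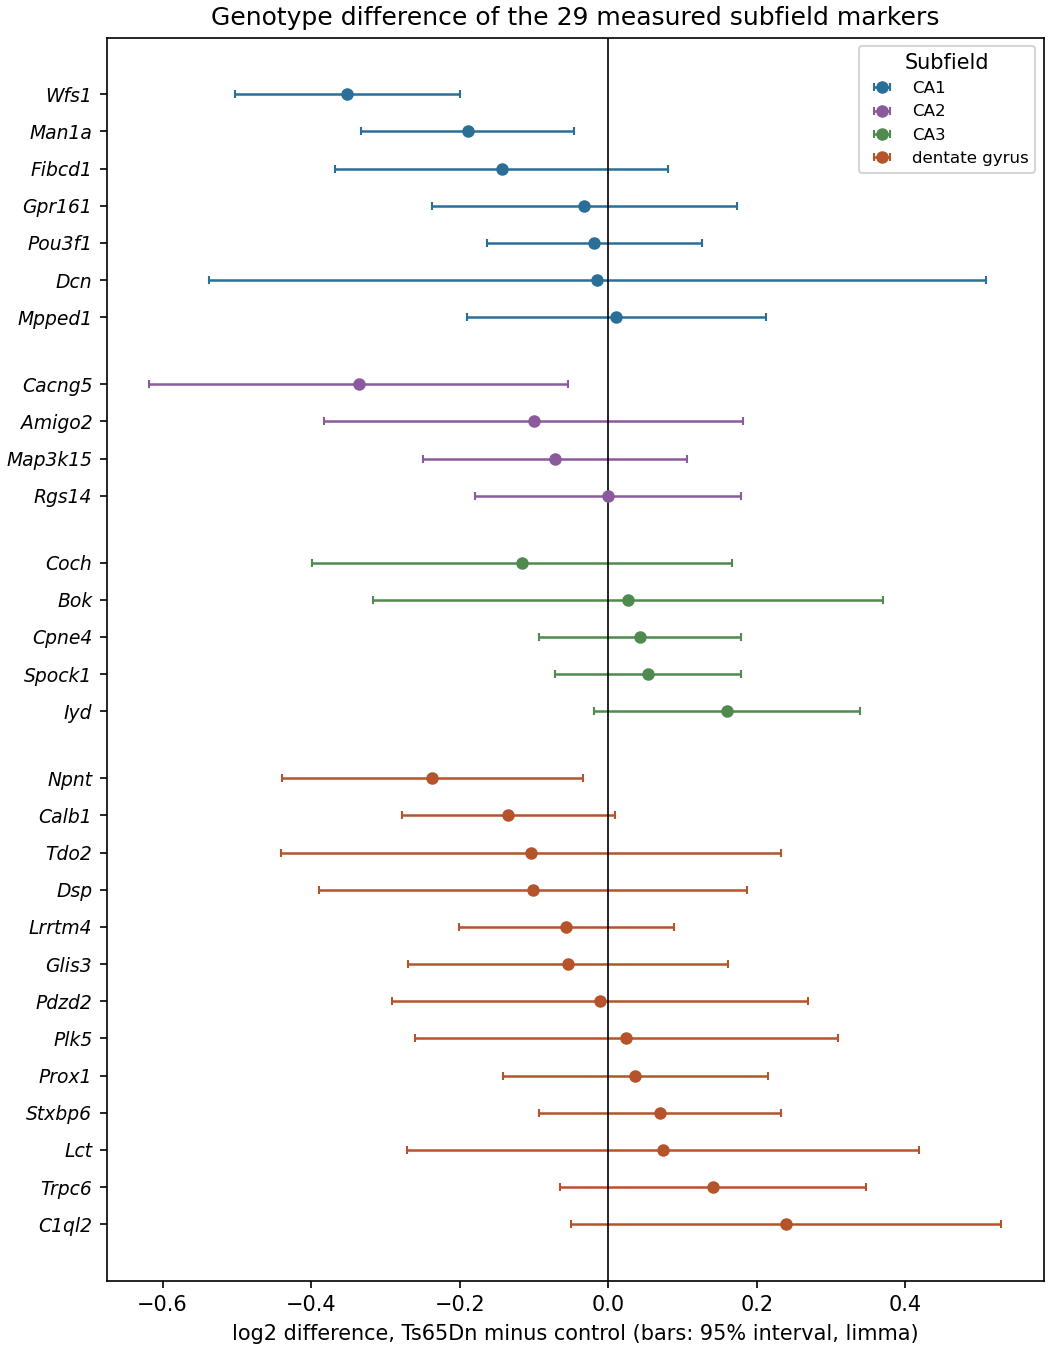
Difference in log2 signal between Ts65Dn and control hippocampus (x axis) for the 29 measured subfield markers (y axis), coloured by subfield; points are limma estimates over 5 mice per genotype and bars are 95% intervals. The intervals of Wfs1, Man1a, Cacng5 and Npnt lie below 0, and those of the other 25 include 0.

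Wfs1 encodes wolframin, a membrane protein of the endoplasmic reticulum that is mutated in Wolfram syndrome, and it marks dorsal CA1 pyramidal cells. The gene lies on the minus strand of chromosome 5 (GRCm38, chr5:36966104-36988982). In Ts65Dn mice 1 to 5 its log2 signal was 10.40, 10.34, 10.73, 10.60 and 10.58. In control mice 1 to 5 it was 10.88, 10.97, 10.86, 10.84 and 10.85. Every Ts65Dn mouse was below every control mouse, with a gap of 0.111 between the highest Ts65Dn and the lowest control mouse, a separation in this direction found in 0.308% of all transcript clusters. The Ts65Dn mice spread over 0.39 and the controls over 0.135. The means were 10.53 ± 0.159 in Ts65Dn and 10.88 ± 0.0538 in control (SD, n = 5 each).

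The difference of Wfs1 was -0.35 ± 0.07 (SE), a ratio of 0.784 with a 95% interval from 0.706 to 0.871, or 21.6% less signal in Ts65Dn. Its limma p was 0.000324 and its adjusted p 0.0925, above 0.05 and below 0.1, a level that 0.35% of transcript clusters reached. The exact permutation test over the 252 allocations of 10 mice to 2 groups of 5 gave a two-sided p of 0.00794, the smallest it can give. This value follows from the separation of the genotypes and is not further support. The test did not pair mice of the same number, and Wfs1 was chosen with earlier results of these data known. Of the 81 transcript clusters with a smaller p than Wfs1, 8 were not assigned to the segments in 3 copies. Any with several gene symbols were counted among these 8 wherever they lie, so 8 is an upper limit. Over 23 alternative fits the difference stayed between -0.40 and -0.29 and was negative in all 23. Where mice were only left out or weighted, the separated genotypes fixed this sign in advance. Fits that changed only the rows used, the handling of variance, the block or the threshold could not move the difference from -0.35. The adjusted p ran from 0.0272 to 1 and was 0.258 with mice of the same number as a block. It was under 0.05 in 2 of these fits, the one with weighted arrays (0.0291) and the one without Ts65Dn mouse 3 (0.0272).

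**Figure D2:**
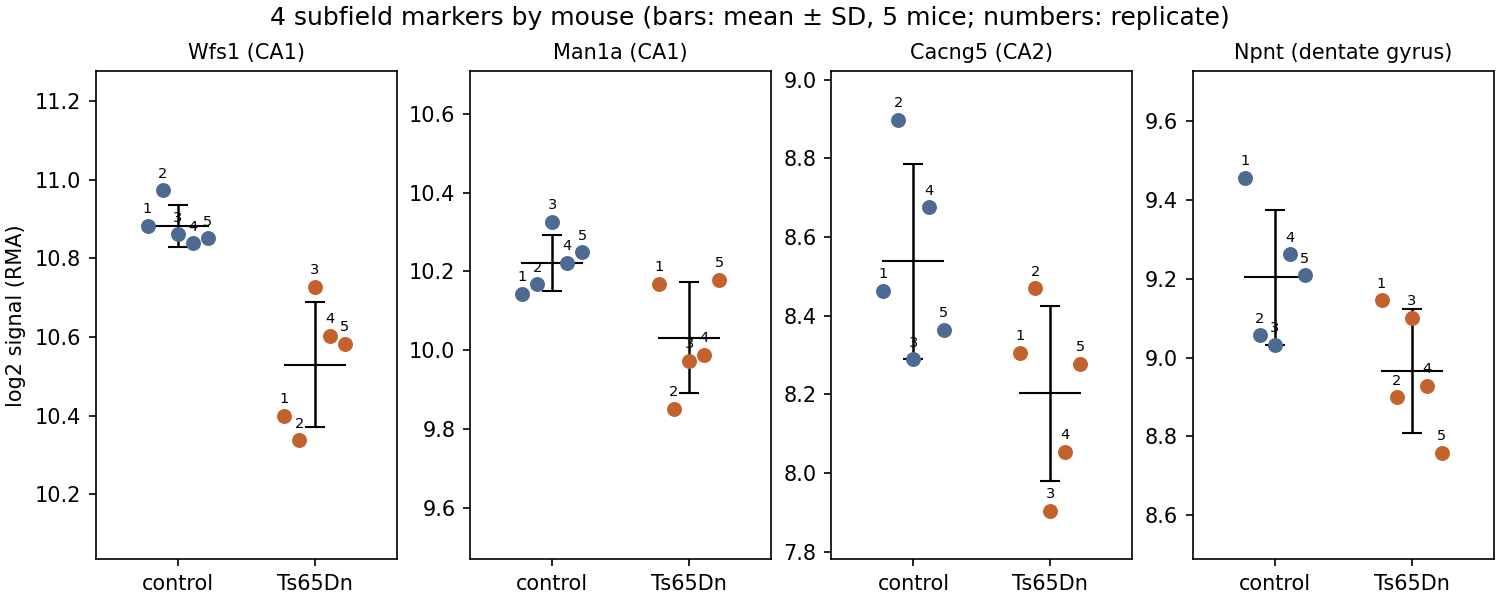
Log2 signal (y axis) by genotype (x axis) of the 4 subfield markers with an unadjusted limma p under 0.05, Wfs1, Man1a, Cacng5 and Npnt; points are mice numbered by replicate, bars are the mean and SD of 5 mice, and each panel covers the same height on its own scale. The genotypes are apart for Wfs1, with Ts65Dn at 10.34 to 10.73 and control at 10.84 to 10.97, and overlap for the other 3.

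The stretches just before the transcription starts of Wfs1, the single marker with separated genotypes, and of Man1a, the CA1 marker with the next smallest p, are shown to set these markers beside each other at the sequence level. They hold the 250 bases before the start in the RefSeq promoter table (GRCm38.p6), chr5:36988983-36989232 for Wfs1 and chr10:54075738-54075987 for Man1a, both written 5′ to 3′ on the minus strand. The Man1a window lies within the annotated span of its gene. Capitals mark matches to CCAAT and GGGCGG on either strand, the letters of the CCAAT box and the GC box.
Wfs1: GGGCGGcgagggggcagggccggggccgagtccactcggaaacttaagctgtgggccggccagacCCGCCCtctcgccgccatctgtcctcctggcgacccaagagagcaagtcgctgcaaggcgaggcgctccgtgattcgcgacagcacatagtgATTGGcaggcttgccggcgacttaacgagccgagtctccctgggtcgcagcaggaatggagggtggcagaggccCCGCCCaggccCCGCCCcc
Man1a: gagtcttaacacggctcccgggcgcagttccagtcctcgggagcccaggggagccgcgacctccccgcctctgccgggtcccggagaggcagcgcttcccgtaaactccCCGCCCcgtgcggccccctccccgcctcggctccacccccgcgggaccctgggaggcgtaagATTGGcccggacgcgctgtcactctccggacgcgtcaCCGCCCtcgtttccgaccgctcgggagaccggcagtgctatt
The Wfs1 window held 1 CCAAT match and 4 GGGCGG matches with 23 CpG dinucleotides, and the Man1a window held 1 and 2 with 31 CpG dinucleotides. Promoters were listed for 25 of the 30 markers and for 27025 genes. CCAAT was in 10 of these 25 and in 37.5% of all genes' windows, and GGGCGG was in 17 of 25 and in 35.4%. The 27025 genes were not limited to expressed ones, and no share over expressed genes was computed. Whether these shares set subfield markers apart from other expressed genes was therefore not tested. The full endoplasmic reticulum stress element, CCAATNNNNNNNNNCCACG, was in 0.13% of all windows and in 0 of the 25 marker windows. The CCACG letters alone were in 7 of 25 and in 31.0% of all windows. A match in these windows is a description of letters and not a mapped binding site.

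CA1 had 6 of its 7 markers with a difference below 0, with a median of -0.03, and Wfs1 and Man1a were the 2 at an unadjusted p under 0.05. The exception, Mpped1, was below 0 in 7 alternatives, such as -0.0024 after quantile normalization over tested rows. In the other direction, Dcn, Pou3f1 and Gpr161 were above 0 in 6, 3 and 1 alternatives. Man1a encodes a Golgi mannosidase that trims N-linked glycans. Its log2 signal in Ts65Dn mice 1 to 5 was 10.17, 9.85, 9.97, 9.99 and 10.18. In control mice 1 to 5 it was 10.14, 10.17, 10.33, 10.22 and 10.25. Ts65Dn mice 2, 3 and 4 were below all controls, whereas mice 1 and 5 were within the control range. The difference was -0.19 ± 0.07 (SE; limma, adjusted p = 1).

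Mpped1, a metallophosphoesterase, was the CA1 marker with the highest mean signal. It stood at 11.04, 10.88, 10.98, 10.94 and 10.73 in Ts65Dn mice 1 to 5 and at 11.12, 10.86, 11.07, 10.86 and 10.62 in the controls. The Ts65Dn range lay within the control range, and mouse 5 was the lowest in both. Its difference was 0.01 ± 0.09, with a 95% interval from -0.19 to 0.21 that does not reach the -0.35 of Wfs1. The homeodomain factor Pou3f1 had a difference of -0.02 ± 0.07, Gpr161, a receptor of the primary cilium, of -0.03 ± 0.09, and Fibcd1, a membrane receptor with a fibrinogen-like domain, of -0.14 ± 0.10, or -0.04 without Ts65Dn mouse 2.

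Dcn encodes decorin, a small proteoglycan of the extracellular matrix that marks ventral CA1 cells and is also made by fibroblasts. It had the largest standard error of the 29 markers, with 10.10, 10.73, 9.77, 10.54 and 9.52 in Ts65Dn mice 1 to 5. The controls had 10.28, 10.09, 10.44, 9.53 and 10.40. High and low mice occurred in both genotypes, and the difference was -0.01 ± 0.24. The mean of 9 markers of fibroblasts in meninges and vessels, without Dcn, ran from 7.30 to 7.82 in Ts65Dn and from 7.08 to 7.81 in control. It was highest in Ts65Dn mouse 2, which had the highest Dcn, and lowest in control mouse 4, which had the lowest Dcn of the controls, but Ts65Dn mouse 4, with the second highest Dcn, had a fibroblast mean of 7.37. The part of fibroblasts in the Dcn signal was not tested.

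All 4 measured CA2 markers had a difference below 0, with a median of -0.09, though that of Rgs14 turned to 0.0037 when arrays were centred on their medians. Cacng5 encodes an auxiliary subunit of AMPA receptors. Its log2 signal was 8.31, 8.47, 7.90, 8.05 and 8.28 in Ts65Dn mice 1 to 5 and 8.46, 8.90, 8.29, 8.68 and 8.37 in controls. Ts65Dn mice 3, 4 and 5 were below every control, whereas mouse 1 was above the lowest control and mouse 2 above 3 of the controls. The difference of -0.34 ± 0.13 was nearly as large as that of Wfs1, but with wider spread (limma, adjusted p = 1). With mice of the same number as a block, the limma adjusted p of Cacng5 was 0.349, against 0.258 for Wfs1.

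Rgs14, a regulator of G protein signalling that restrains synaptic plasticity in CA2 neurons, had a difference near 0. Its values were 9.51, 9.22, 9.30, 9.39 and 9.39 in Ts65Dn mice 1 to 5 and 9.50, 9.09, 9.48, 9.43 and 9.31 in controls, with a difference of -0.00 ± 0.08 and a 95% interval from -0.18 to 0.18. The Ts65Dn range lay almost wholly within the control range. The cell adhesion molecule Amigo2 had a difference of -0.10 ± 0.13 and the kinase Map3k15 of -0.07 ± 0.08. Of 4 other CA2 markers, Pcp4, which encodes a calmodulin-binding peptide and lies in the Mmu16 segment in 3 copies, had a difference of 0.12 ± 0.05 (limma, adjusted p = 1), and Stard5, Fgf2 and Necab2 had differences of 0.10 ± 0.07, -0.13 ± 0.11 and -0.07 ± 0.11.

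CA3 had 4 of its 5 markers with a difference above 0, with a median of 0.04, and none of the 5 had an unadjusted p under 0.05 with limma. Spock1, which encodes the proteoglycan testican-1, was the CA3 marker with the highest mean signal. It stood at 11.26, 11.12, 11.19, 11.01 and 11.19 in Ts65Dn mice 1 to 5 and at 11.08, 10.96, 11.19, 11.17 and 11.11 in controls. The genotypes overlapped over most of their ranges, with a difference of 0.05 ± 0.06. Cpne4, a calcium-dependent phospholipid-binding protein, had a difference of 0.04 ± 0.06 and Bok, a member of the Bcl-2 family, of 0.03 ± 0.16, which turned to -0.07 without Ts65Dn mouse 5. Of 3 other CA3 markers, Prss35, Nectin3 and Grik4 had differences of 0.15 ± 0.10, 0.06 ± 0.06 and -0.02 ± 0.04.

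Iyd and Coch mark opposite ends of CA3. Iyd, an iodotyrosine deiodinase that marks the dorsal end, had log2 signals of 8.05, 7.61, 7.91, 8.02 and 7.97 in Ts65Dn mice 1 to 5 and of 7.82, 7.69, 7.79, 7.61 and 7.84 in controls. Ts65Dn mice 1, 3, 4 and 5 were above every control, and Ts65Dn mouse 2 was below all of them. The difference was 0.16 ± 0.08 (limma, adjusted p = 1). Coch, which encodes the matrix protein cochlin and marks the ventral end, stood at 6.95, 7.34, 7.11, 7.32 and 7.18 in Ts65Dn mice and at 7.15, 7.18, 7.47, 6.97 and 7.71 in controls. Its control range enclosed most Ts65Dn values, with control mouse 5 highest, and the difference was -0.12 ± 0.13.

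The 13 dentate gyrus markers split into 6 above and 7 below 0, with a median of -0.01. Npnt encodes nephronectin, a matrix ligand of integrins. Its log2 signal was 9.15, 8.90, 9.10, 8.93 and 8.76 in Ts65Dn mice 1 to 5 and 9.46, 9.06, 9.03, 9.26 and 9.21 in controls. Ts65Dn mice 2, 4 and 5 were below all controls, while mice 1 and 3 were above the 2 lowest controls. The difference was -0.24 ± 0.09 (limma, adjusted p = 1).

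C1ql2 had a difference of about the same size in the opposite direction. It encodes a secreted C1q-like protein of mossy fibre synapses that recruits kainate receptors. Its log2 signal was 10.004, 9.47, 10.05, 9.62 and 9.46 in Ts65Dn mice 1 to 5 and 9.56, 9.35, 9.30, 9.44 and 9.77 in controls. Ts65Dn mice 1 and 3 were above every control, and the other 3 were within the control range, giving 0.24 ± 0.13 (limma, adjusted p = 1). Calb1, the calcium buffer calbindin of granule cells, also found in some CA1 pyramidal cells and interneurons, stood at 11.31, 11.06, 11.28, 11.37 and 11.05 in Ts65Dn mice and at 11.43, 11.35, 11.28, 11.35 and 11.33 in controls. Ts65Dn mice 2, 3 and 5 were below all controls, mouse 3 by less than 0.01, and mice 1 and 4 were among the controls, with a difference of -0.13 ± 0.07 (limma, adjusted p = 1).

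The long-axis markers of the dentate gyrus were Lct, lactase, for the dorsal end and Trpc6, a cation channel, for the ventral end. Lct stood at 9.47, 8.94, 9.91, 9.57 and 9.41 in Ts65Dn mice 1 to 5 and at 9.36, 9.26, 9.12, 9.63 and 9.57 in controls. The lowest and the highest mouse were both Ts65Dn, and the difference was 0.07 ± 0.16. Trpc6 stood at 9.42, 9.15, 9.41, 9.23 and 9.39 in Ts65Dn mice and at 9.06, 8.98, 9.04, 9.36 and 9.43 in controls. All 5 Ts65Dn mice were above the 3 lowest controls and below control mouse 5, with a difference of 0.14 ± 0.09 (limma, adjusted p = 1). Over the 3 dorsal markers Wfs1, Iyd and Lct the mean difference was -0.04, with 2 above and 1 below 0, and over the 3 ventral markers Dcn, Coch and Trpc6 it was 0.00, with 1 above and 2 below.

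The other 8 dentate gyrus markers had differences from -0.10 to 0.07. Prox1, the homeobox factor that sets granule cell identity, was at 0.04 ± 0.08, Stxbp6, a syntaxin-binding protein, at 0.07 ± 0.07 and Plk5, a polo-like kinase, at 0.02 ± 0.13. The scaffold protein Pdzd2 was at -0.01 ± 0.13, the zinc finger factor Glis3 at -0.05 ± 0.10 and Lrrtm4, a synaptic adhesion protein, at -0.06 ± 0.07. Dsp, the desmosome protein desmoplakin, was at -0.10 ± 0.13 and Tdo2, which opens the ring of tryptophan, at -0.10 ± 0.15. Of 4 other dentate markers, Maml2, Fam163b, Dock10 and Neurod1 had differences of -0.12 ± 0.08, -0.12 ± 0.13, -0.07 ± 0.09 and 0.01 ± 0.08.

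By subfield, the mean log2 signal of the CA1 markers was 9.87 ± 0.0814 in Ts65Dn and 9.98 ± 0.0894 in control (SD, n = 5 each), a difference of -0.11, which became -0.06 without Wfs1, the member with the largest difference. The CA2 mean was 8.01 ± 0.113 against 8.13 ± 0.0972, a difference of -0.13 (-0.06 without Cacng5), and the CA3 mean 9.33 ± 0.0973 against 9.30 ± 0.127, a difference of 0.03 (0.0015 without Iyd). The dentate gyrus mean was 9.17 ± 0.149 against 9.18 ± 0.128, a difference of -0.01, which ran from -0.06 to 0.04 when single mice were left out. The genotypes overlapped in all 4 subfields, and no p was computed for these means.

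**Figure D3:**
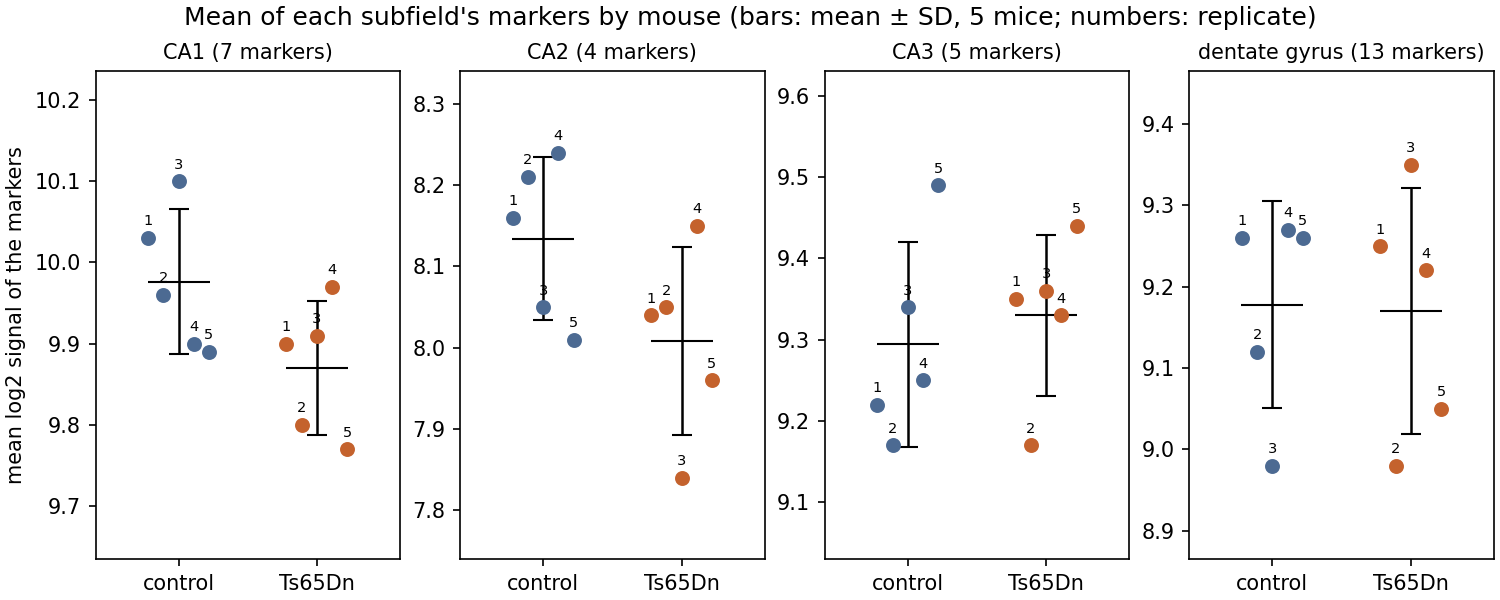
Mean log2 signal of the measured markers of each subfield (y axis) by genotype (x axis); points are mice numbered by replicate, bars are the mean and SD of 5 mice, and each panel covers the same height on its own scale. The genotypes overlap in each of the 4 subfields, and in the dentate gyrus each genotype has 1 mouse at 8.98, the lowest value there.

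The dentate markers differed more between mice of 1 genotype than between the genotypes. Their mean was 9.25, 8.98, 9.35, 9.22 and 9.05 in Ts65Dn mice 1 to 5 and 9.26, 9.12, 8.98, 9.27 and 9.26 in control mice 1 to 5. Ts65Dn mouse 2 and control mouse 3 were lowest, and in both 0 of the 13 markers exceeded its own median over the 10 mice. In Ts65Dn mouse 3 and control mice 4 and 5, 11 of the 13 did so. In control mouse 3 all 7 of 7 CA1 markers were above their medians and the CA1 mean was the highest of the 10 at 10.10. Ts65Dn mouse 2, in contrast, had 1 of 7 CA1 markers above its median and a CA1 mean of 9.80.

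Tissue other than hippocampus also varied between the mice. The mean of 10 choroid plexus markers, the epithelium in the ventricles that touches the hippocampus, was 7.06, 9.76, 6.84, 9.16 and 8.13 in Ts65Dn mice 1 to 5 and 7.61, 8.50, 7.01, 6.91 and 9.43 in controls. All 10 of the 10 differences were above 0, with a median of 0.252, none at an unadjusted p under 0.05 (0 of 10, limma). Of these genes, Clic6 at 0.66 ± 0.78 and Kcne2 at 0.39 ± 0.39 lie in the Mmu16 segment in 3 copies, and the other 8 were at 0.05 to 0.58. Ts65Dn mouse 2, lowest in Wfs1 and at 8.98 in the dentate mean, was highest here. Control mouse 3, also at 8.98 in the dentate mean, was among the 4 lowest mice here. Without the 2 arrays of each genotype highest in these markers, an alternative chosen after seeing the data that left 3 mice per genotype, Wfs1 differed by -0.29 (limma, adjusted p = 1), and 0 transcript clusters passed an adjusted p of 0.05 in that smaller set. The part of choroid plexus in the marker levels was not tested. Of 7 thalamus and habenula genes, 2 differences were above and 5 below 0, with a median of -0.129 and 0 at an unadjusted p under 0.05 (limma). Their mean ran from 8.084 to 8.311 in Ts65Dn and from 8.044 to 8.485 in control.

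**Figure D4:**
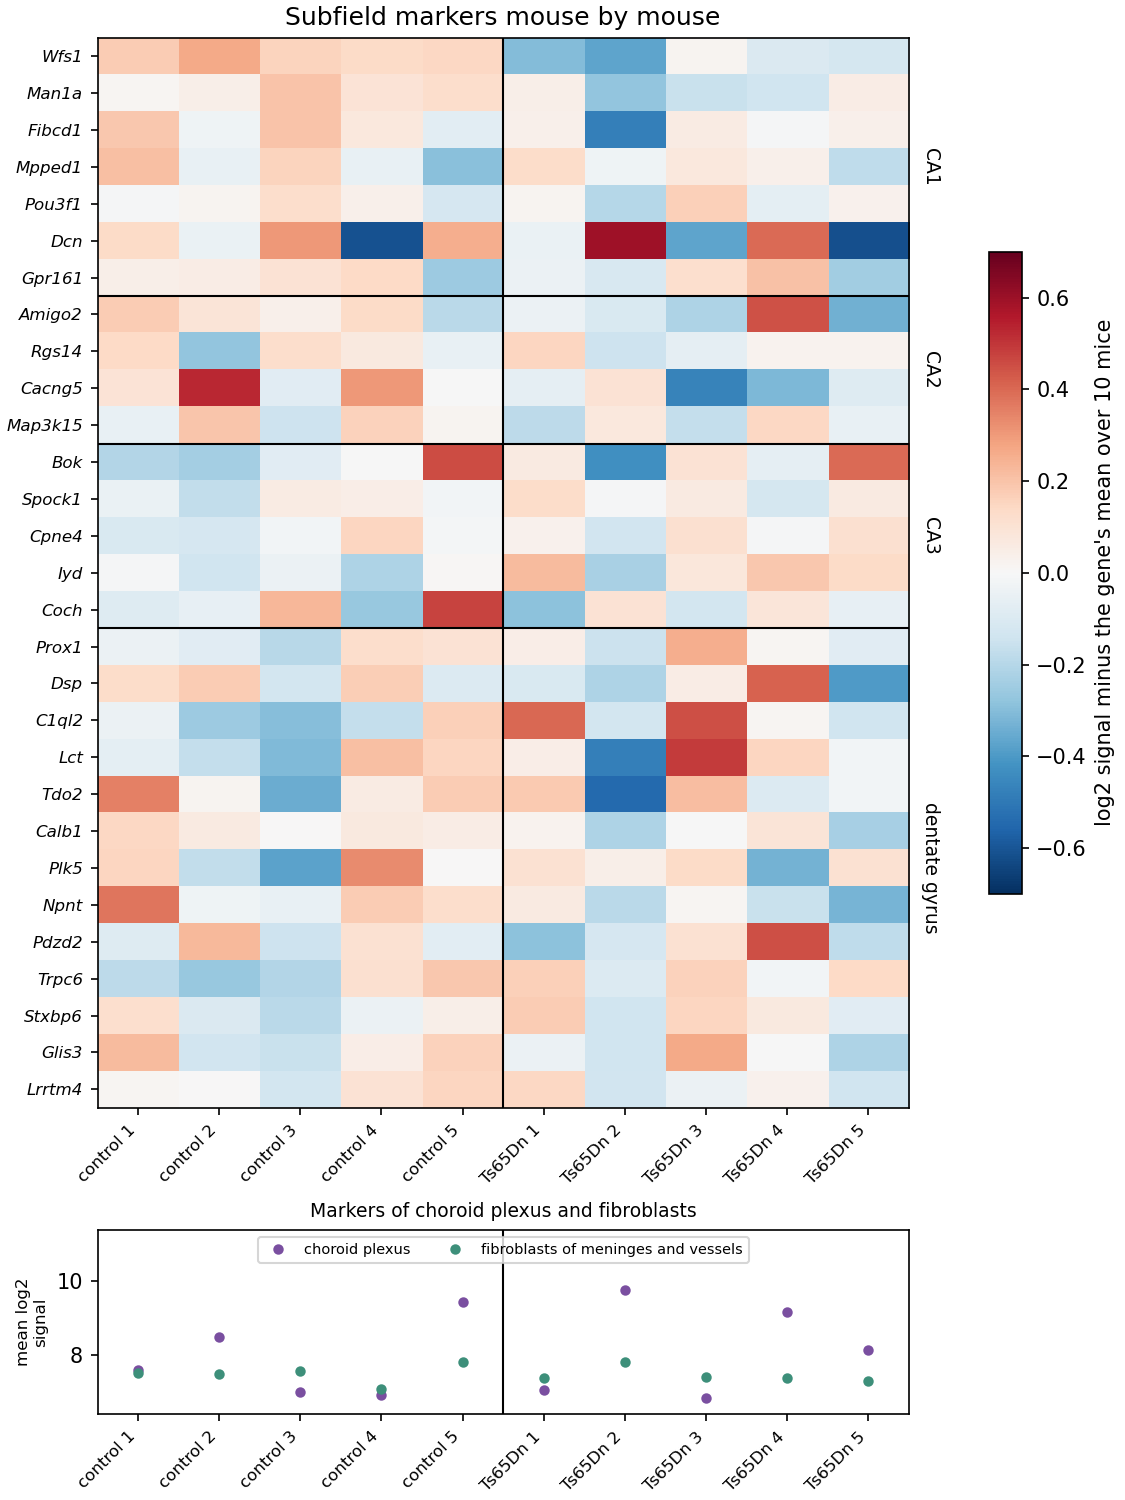
Log2 signal of each of the 29 markers minus its mean over the 10 mice (colour; rows are genes grouped by subfield, columns are mice) with the mean log2 signal of choroid plexus and fibroblast markers of the same mice below. The dentate gyrus rows of Ts65Dn mouse 2 and control mouse 3 are low together, and the choroid plexus mean was 9.76 in the first and 7.01 in the second.

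Over 17 lists of other hippocampal regions, neighbouring tissues, cell types and the endoplasmic reticulum stress response, 110 of 119 genes were measured. With limma, 0 of them passed an adjusted p of 0.05, against 0.316% of all transcript clusters. At an unadjusted p under 0.05, 1 was higher (Pcp4), against 1.73% of all transcript clusters, and 0 were lower, against 1.43%. The stress response list, taken because wolframin sits in that organelle, had 16 of 19 measured genes above 0 with a median of 0.0508, and 0 at an unadjusted p under 0.05. Its genes with the smallest p were Sel1l, which serves in the degradation of misfolded proteins, at 0.10 ± 0.06, the chaperone Hspa5 at 0.15 ± 0.10, the transcription factor Xbp1 at 0.08 ± 0.05 and Sdf2l1, a partner of Hspa5, at 0.18 ± 0.13. Herpud1, Atf4 and Ddit3 were below 0, at -0.04 ± 0.06, -0.03 ± 0.07 and -0.01 ± 0.03, and the mean of the list overlapped between the genotypes, at 9.709 to 9.898 in Ts65Dn and 9.695 to 9.78 in control. The pyramidal cell gene Neurod6 was at 0.09 ± 0.06. Astrocyte genes had 2 differences above and 4 below 0, and their mean ran from 10.38 to 10.43 in Ts65Dn and from 10.43 to 10.49 in control. Mossy cell genes, from the hilus of the dentate gyrus, had 2 differences above and 2 below 0, with Drd2 at -0.32 ± 0.21, Calb2 at -0.21 ± 0.25, Cyp26b1 at 0.08 ± 0.06 and Calcrl at 0.03 ± 0.08. Interneuron genes had 2 differences above and 6 below 0, with the peptides Vip at 0.25 ± 0.11 and Npy at 0.09 ± 0.11, the calcium buffer Pvalb at -0.11 ± 0.10 and the GABA-synthesising enzyme Gad2 at -0.08 ± 0.09.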

How the data were processed

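Total RNA of both hippocampi of each mouse was hybridised to Affymetrix Mouse Gene 1.0 ST arrays. The authors deposited log2 signals from RMA, a procedure of background correction, quantile normalization and summary of probes into transcript clusters, which was not repeated. RMA, limma and mm10 appear without versions in the submitters' processing notes. Of 35556 transcript clusters, 21789 had 1 gene symbol in the platform annotation, 1621 several and 12146 none, and the 23410 with a symbol were tested. All array columns were mapped to a mouse, and the labels call the mice biological replicates.

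Ts65Dn and control were compared by limma 3.58.1 in R 4.3.3 (lmFit, then eBayes, two-sided) in a model of genotype alone, and p-values were adjusted by Benjamini-Hochberg across the 23410 transcript clusters, with a threshold of 0.05. The study's rank method (FCROS) was rewritten, with a trim of 0.25 and tails of 0.025 and 0.975. Precision is limited by the 5 mice per genotype. Alternatives were other rows, scalings, fits and left-out arrays. Scripts were tested on simulated data.

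All markers are named; Wfs1, markers at an unadjusted p under 0.05, markers without overlap, long-axis markers and the marker of each subfield with the highest mean signal otherwise are given mouse by mouse, as is C1ql2, chosen after its values were seen. The markers, their subfields and the other lists were chosen with earlier results of these data known. Sequences are from RefSeq. Plots were drawn with matplotlib 3.10.9.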

Additional observations from a re-analysis of the deposited data

Results flagged for a closer look

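In each genotype, the lowest and the highest of the 5 mice were set against the nearest of the others for every measured marker and each subfield mean, and 3 of 66 such groups held a mouse far from the rest, while chance alone gives about 1 in 20. Fibcd1 was 8.856 in Ts65Dn mouse 2 and between 9.326 and 9.394 in the other Ts65Dn mice. Gpr161 was 8.615 in control mouse 5 and between 8.91 and 9.007 in the other controls. Plk5 was 8.006 in Ts65Dn mouse 4 and between 8.38 and 8.474 in the other Ts65Dn mice.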

How the results depend on the processing

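With 5 mice per genotype, the number of called markers depended on the settings. It was 1 (Wfs1) with weighted arrays and at an adjusted p of 0.1, 8 by the rank method, and 0 to 1 when single mice were left out, where the 1 was Wfs1 without Ts65Dn mouse 3. Wfs1 then differed by -0.39, -0.35, -0.35 and -0.40 to -0.30, in that order. Over all transcript clusters the rank method called 1255, a share that its tails largely set in advance. Limma on the 3 mice per genotype lower in choroid plexus markers, an alternative chosen after the data were seen, called 0. The CA1 difference was -0.22 when each mouse was given the median signal over the CA1 markers, against -0.11 for the mean. That median took the signal of Man1a or Dcn, the marker of middle brightness. The median of the 7 CA1 differences was -0.03. The CA2 difference was likewise -0.22 by the median signal, which averaged Amigo2 and Cacng5, and -0.06 without Cacng5, against -0.13. The median of the CA2 differences was -0.09. The CA3 difference of 0.03 was 0.0015 without Iyd and 0.0011 to 0.082 with single mice left out, lowest without control mouse 2, and the dentate difference of -0.01 ran from -0.058 without control mouse 3 to 0.038 without Ts65Dn mouse 2. Markers whose difference changed sign all had an adjusted p of 1 over the 10 mice. Without the arrays highest in choroid plexus markers, Mpped1 was at -0.098, Pou3f1 at 0.022 and Tdo2 at 0.11. With weighted arrays Dcn was at 0.028 and Rgs14 at 0.010, with arrays centred on their medians Rgs14 was at 0.0037, and with quantile normalization Mpped1 was at -0.0024. With single mice left out, the ranges that crossed 0 were -0.061 to 0.065 for Mpped1, -0.063 to 0.028 for Pou3f1, -0.17 to 0.14 for Dcn, -0.099 to 0.025 for Gpr161, -0.070 to 0.035 for Rgs14, -0.069 to 0.14 for Bok, -0.023 to 0.078 for Prox1, -0.039 to 0.20 for Lct, -0.20 to 0.019 for Tdo2, -0.067 to 0.11 for Plk5 and -0.12 to 0.060 for Pdzd2. Among markers that kept their sign, the range was -0.18 to -0.042 for Fibcd1, -0.22 to -0.030 for Amigo2, -0.22 to -0.015 for Dsp and -0.20 to -0.012 for Coch. The causes were not tested. Same-numbered mice of the genotypes had correlated deviations (r = 0.507, 0.269, 0.325, 0.0313 and 0.459 for numbers 1 to 5), and 4 of 5 Ts65Dn mice correlated best with the control of their own number, a hint from the data. Ts65Dn mouse 4 correlated best with control mouse 2, so the numbers were not taken as pairs. With the replicate block, limma called 76 transcript clusters against 74 without it, and Wfs1 differed by -0.35 (adjusted p = 0.258, no longer under 0.1). In the same limma fit Cacng5, Npnt and Man1a had adjusted p-values of 0.349, 0.7 and 0.753. Dim markers had no value where only transcript clusters above the median signal were kept.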
